A study of Mus musculus with 20 samples.

Results

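The natriuretic peptide system was followed through 6 genes of the mouse left ventricle: the peptide genes Nppa and Nppb, the protease gene Corin, and the receptor genes Npr1, Npr2 and Npr3. They were taken by their symbols from gene-level read counts in which 24059 genes are listed. All 6 were found, each at 1 locus, and all 6 were among the 14007 genes that passed the filter on low counts. The left ventricular free wall was sampled from males of strain C57BL/6, about 9 to 13 weeks old, and gave 20 RNA-seq libraries, 5 in each of 4 groups. In CardioGRKO mice (GRfl/fl alphaMHCCre/+) the glucocorticoid receptor alleles are floxed, and Cre is driven in cardiomyocytes by the promoter of alpha-myosin heavy chain. GRflox mice (GRfl/fl), their littermates, carry the floxed alleles without Cre, so the Cre transgene differs between the genotypes along with the receptor. Each genotype was sampled at ZT0, when the lights go on, and at ZT12, when they go off. Nothing in the labels says that replicates are separate animals, so p-values measure the spread between these libraries, which may be partly technical.

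Natriuretic peptides are hormones made by cardiomyocytes in response to wall stretch and hormonal signals. The atria are the main source of the atrial peptide encoded by Nppa, and ventricular Nppa and Nppb are widely used as transcripts of ventricular stress. The peptides are cut from inactive precursors, act through receptors that make cGMP, and lower blood volume, vascular tone and cardiac growth.

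Levels are CPM, the counts of a gene scaled to a common library total with TMM factors, and a gene is called changed where the adjusted p of edgeR's quasi-likelihood test, corrected over all 14007 genes by the Benjamini-Hochberg method, is under 0.05. Depth ran from 5854462 counts in CardioGRKO ZT0 replicate 1 to 37648421, with a median of 23223656. That shallowest library also carries another number in its file header than the remaining 19. Nr3c1, the targeted glucocorticoid receptor gene, averaged 55.1 ± 3.51 CPM in CardioGRKO and 115 ± 6.11 CPM in GRflox at ZT0 (SD, n = 5 each). At ZT12 it averaged 51 ± 3.5 CPM in CardioGRKO and 107 ± 7.98 CPM in GRflox, and its ranges did not overlap between genotypes at either time. By edgeR this was a log2 fold change of -1.06 ± 0.06 (SE, adjusted p 2.04e-11) at ZT0 and of -1.08 ± 0.06 (adjusted p 5.17e-12) at ZT12, a level in CardioGRKO 0.48 times that in GRflox at ZT0. Summed over 6 ventricular cardiomyocyte markers, levels were 85209 to 91218 CPM in CardioGRKO and 96572 to 100305 CPM in GRflox at ZT0. At ZT12 they were 83735 to 96622 CPM in CardioGRKO and 98495 to 103841 CPM in GRflox. The summed level of 4 atrial markers (Myl7, Sln, Myl4, Bmp10) ran from 1.96 to 149 CPM over the 20 libraries.

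Nppb and Nppa lie in tandem on the plus strand of chromosome 4. In the GRCm38.p6 assembly (mm10), Nppb spans chr4:147985786-147987205 and Nppa chr4:148000722-148002074, with 13.5 kb between them. Because these 2 neighbours gave the largest differences of the 6 genes, the bases before their starts are shown, from RefSeq's promoter table of GRCm38.p6, with capitals for matches to the motifs searched. For Nppa these are the 250 bases before its start, chr4:148000472-148000721, plus strand. For Nppb the 27 bases that hold its GATA and M-CAT matches are shown, chr4:147985795-147985821, plus strand. The table's start of Nppb lies 114 bases downstream of the gene's first annotated base, so this run is also annotated as the 5′ untranslated part of a longer transcript.
Nppa: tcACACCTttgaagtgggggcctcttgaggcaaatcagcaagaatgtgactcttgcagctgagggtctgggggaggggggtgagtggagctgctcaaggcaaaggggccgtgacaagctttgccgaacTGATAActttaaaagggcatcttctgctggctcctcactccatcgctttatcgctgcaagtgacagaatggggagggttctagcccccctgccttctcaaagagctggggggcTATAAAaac
Nppb: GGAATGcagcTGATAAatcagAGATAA

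Motifs were searched on both strands in windows of 250 bases before to 50 bases after each start, 32851 windows in all, and no 2 matches in these windows overlapped. In the Nppa window the T-box motif AGGTGT matched on the minus strand at -248 to -243, the GATA form TGATAA at -122 to -117 and the TATA box TATAAA at -9 to -4, counted from the table's start. In the Nppb window the M-CAT motif CATTCC matched on the minus strand at -105 to -100, TGATAA at -95 to -90, the GATA form AGATAA at -84 to -79 and TATAAA at -31 to -26. A single arm of the glucocorticoid response element, AGAACA, was at 38 to 43 after the Nppb start and not in the Nppa window. It was also at -31 to -26 in the Npr3 window and not in those of Npr1, Npr2 and Corin. Of all windows, AGGTGT was in 13.7%, TGATAA in 9.05%, TATAAA in 13.6%, CATTCC in 14.7%, AGATAA in 11.2% and AGAACA in 19%. Neither the Nppa nor the Nppb window held the palindromic glucocorticoid response element (0.00913% of windows), the E-box CACGTG (7.15%), the D-box TTATGTAA (0.938%) or the CArG box (1.63%). These matches describe letters, and binding was not measured.

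Per kilobase of exon, the peptide transcripts stood above the receptors in every group. In CardioGRKO ventricles at ZT0 the mean levels in CPM per kb were 310 for Nppb, 221 for Nppa, 38 for Corin, 20.2 for Npr2, 6.11 for Npr1 and 2.34 for Npr3. GRflox ventricles at ZT0 had the same order, with 106 CPM per kb for Nppb, 75.4 for Nppa, 53.2 for Corin, 19.1 for Npr2, 7 for Npr1 and 2.29 for Npr3. In both groups the libraries' ranges of Nppb and Nppa overlapped, while every other pair of neighbours in the order was apart. The order of the top 3 differed at ZT12. CardioGRKO ventricles had 275 CPM per kb of Nppa, 209 of Nppb and 41 of Corin, the first 2 again with overlapping ranges. GRflox ventricles had 111 CPM per kb of Nppa, 63.5 of Corin and 39.6 of Nppb, with no overlap between neighbours. The lower places were held by Npr2, Npr1 and Npr3 in that order, with ranges apart, in both genotypes at ZT12 as well.

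**Figure D1:**
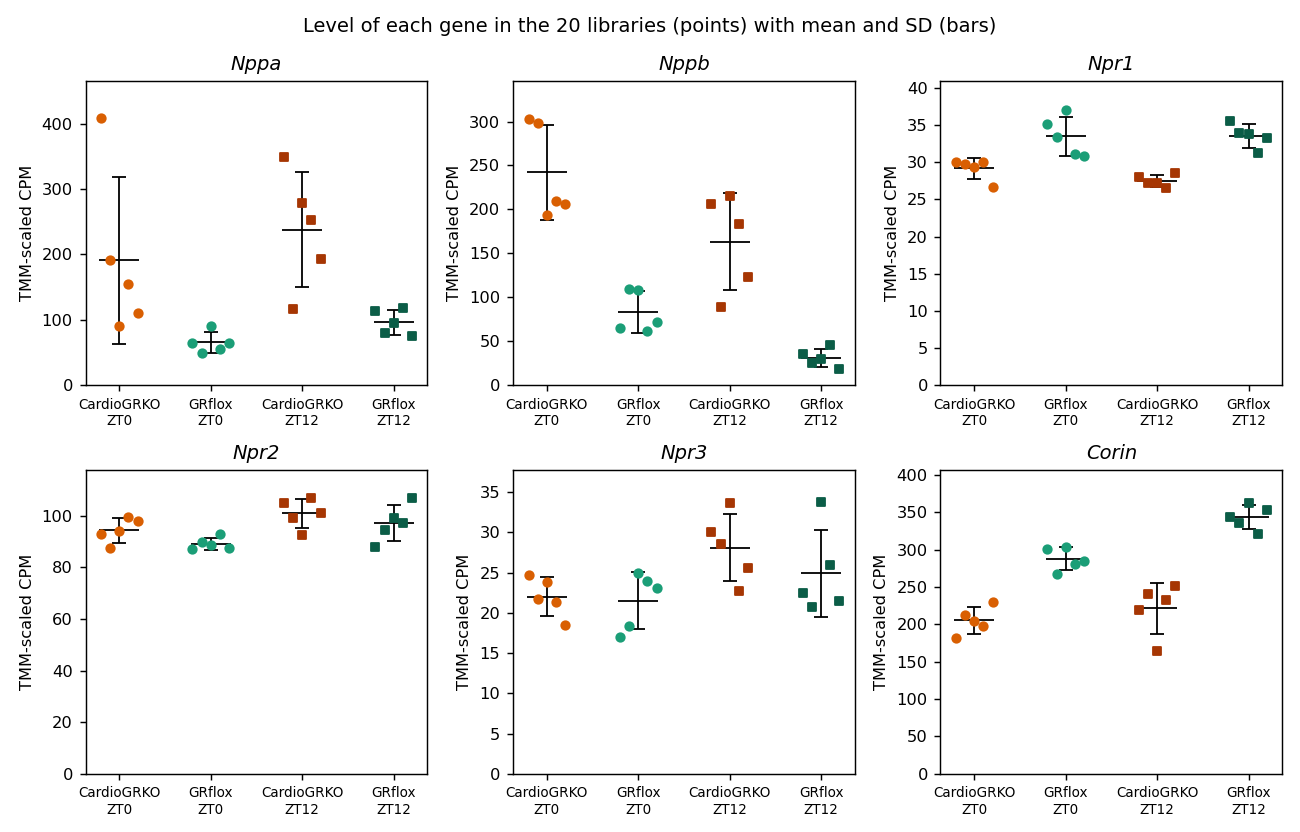
TMM-scaled CPM of the 6 genes in each of the 20 libraries (points; circles ZT0, squares ZT12), with the group mean and SD as bars and a vertical axis from 0. Nppb, Npr1 and Corin do not overlap between CardioGRKO and GRflox at either time, Npr2 and Npr3 overlap at both, and Nppa spreads from 91.2 to 409 CPM in CardioGRKO at ZT0. The share of all genes without overlap was not computed.

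Between genotypes, 4 of the 6 genes were called at each time: Nppa and Nppb were higher in CardioGRKO, and Npr1 and Corin were lower. Over all genes tested, 14.7% were called at ZT0 (7.36% higher, 7.35% lower) and 21.1% at ZT12 (10.4% higher, 10.7% lower), and the median log2 fold change of all genes was -0.006 and 0.004. The share of all genes whose ranges stay apart was not computed, so the statements on overlap have no such background beside them. In bulk tissue, fewer cells of a type and less RNA per cell cannot be told apart.

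Nppa, which encodes the precursor of atrial natriuretic peptide, was higher in CardioGRKO ventricles at both times. At ZT0 replicates 1 to 5 had 409, 191, 91.2, 155 and 110 CPM in CardioGRKO, against 65, 49.8, 90.7, 55.7 and 65.1 CPM in GRflox. The lowest CardioGRKO library lay just above the highest GRflox library. CardioGRKO exceeded GRflox by 1.52 ± 0.31 on the log2 scale (edgeR, adjusted p 0.00145), or 2.86-fold. Replicate 1, the shallow library, had the highest level of all 20, and without it the log2 fold change was 1.08 (adjusted p 0.00474). At ZT12 the 5 libraries had 349, 117, 279, 253 and 193 CPM in CardioGRKO, against 113, 79.3, 95.2, 118 and 75.3 CPM in GRflox. Of the CardioGRKO libraries 4 lay above every GRflox library and replicate 2 lay among them. The difference at ZT12 was 1.31 ± 0.30 on the log2 scale (edgeR, adjusted p 0.00272).

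Nppb, which encodes the precursor of B-type natriuretic peptide, had the largest fold change of the 6 genes between genotypes at ZT12. At ZT0 the CardioGRKO libraries had 303, 298, 193, 210 and 206 CPM, against 64.5, 109, 108, 61.7 and 71.6 CPM in GRflox. The ZT12 libraries had 206, 88.9, 215, 183 and 123 CPM in CardioGRKO, against 35.6, 24.8, 29.9, 46 and 18.3 CPM in GRflox. The genotypes did not overlap at either time. The log2 fold change was 1.53 ± 0.23 at ZT0 (2.9-fold, edgeR, adjusted p 5.14e-05) and 2.41 ± 0.25 at ZT12 (5.31-fold, adjusted p 1.2e-07). Ordered by size of change, Nppb was number 85 of the 14007 genes at ZT0 and number 28 at ZT12, and Nppa was number 89 and number 167.

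**Figure D2:**
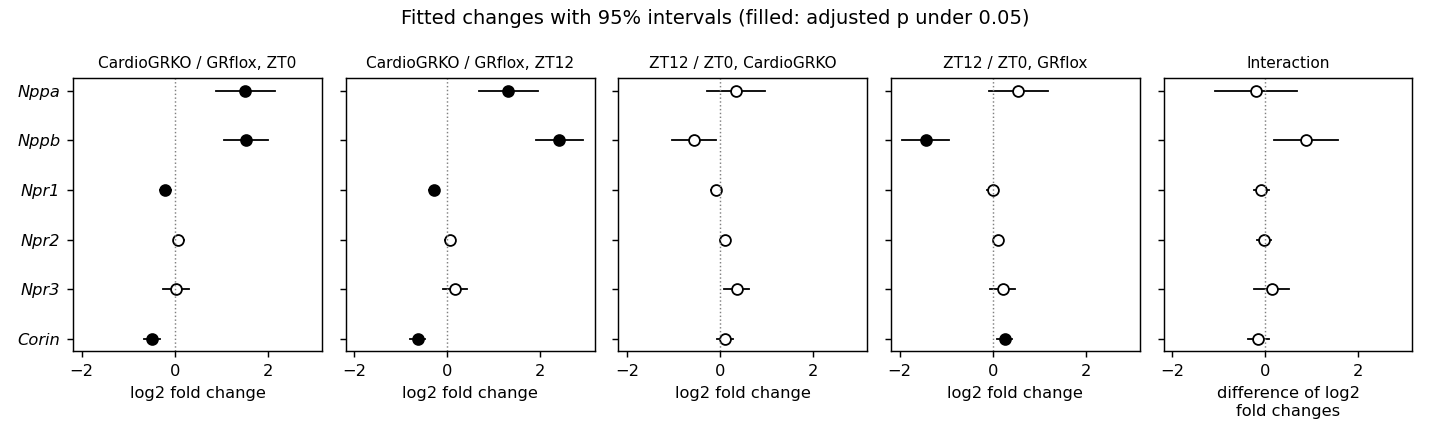
Fitted log2 fold changes of the 6 genes (points) with 95% intervals (lines) in the genotype comparison at each time, the time comparison in each genotype, and the interaction (genotype difference at ZT12 minus that at ZT0); filled points have an adjusted p under 0.05. Nppa and Nppb lie right of 0 and Npr1 and Corin left of it in both genotype panels, and in the time panels only Nppb and Corin in GRflox are filled.

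Over the day the peptide genes differed from each other. In GRflox, Nppb averaged 30.9 ± 10.6 CPM at ZT12 and 82.9 ± 23.6 CPM at ZT0, and every ZT12 library lay below every ZT0 library. The log2 fold change of ZT12 over ZT0 was -1.43 ± 0.24 (edgeR, adjusted p 0.000165), with 17.3% of all genes called in that comparison (8.13% higher, 9.17% lower). Nppa in GRflox averaged 96.1 ± 19.1 CPM at ZT12 and 65.2 ± 15.7 CPM at ZT0, with overlapping ranges and a log2 fold change of 0.55 ± 0.31 that was not called (adjusted p 0.237). It was called in a fit of only these 2 groups (edgeR, adjusted p 0.0189), which does not share the wide spread of the CardioGRKO groups.

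In CardioGRKO none of the 6 genes was called between ZT12 and ZT0 by edgeR (0, with an unadjusted p under 0.05 for Nppb and Npr3), against 9.17% of all genes (4.42% higher, 4.75% lower). Nppb averaged 163 ± 55 CPM at ZT12 and 242 ± 53.9 CPM at ZT0, with 3 of 5 ZT12 libraries below every ZT0 library, and a log2 fold change of -0.56 ± 0.23 (unadjusted p 0.0206, adjusted p 0.131, edgeR). Nppa averaged 238 ± 87.7 CPM at ZT12 and 191 ± 128 CPM at ZT0, a log2 fold change of 0.35 ± 0.30 (adjusted p 0.543, edgeR). Without CardioGRKO ZT0 replicate 1 it was 0.79 and was called (adjusted p 0.0464). Whether the time difference of Nppb differed between genotypes was tested by the interaction, 0.87 ± 0.33 on the log2 scale (95% interval 0.19 to 1.56, unadjusted p 0.0141, edgeR). After adjustment it did not pass (adjusted p 0.612), nor did any of the other 5 genes, with 0.186% of all genes called (0.0643% with a positive and 0.121% with a negative interaction).

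The balance of the peptide transcripts was then read within each library as the log2 ratio of Nppb to Nppa. At ZT12 it was -0.76, -0.40, -0.37, -0.47 and -0.65 in CardioGRKO libraries and -1.66, -1.67, -1.67, -1.36 and -2.04 in GRflox libraries. Every CardioGRKO library lay above every GRflox library. The means, -0.53 ± 0.17 in CardioGRKO and -1.68 ± 0.24 in GRflox (SD, n = 5 each), differed by 1.15, which is 2.22-fold (2-sided exact permutation test, p 0.00794, the smallest that 5 against 5 can give, adjusted p 0.0317 over 4 planned ratio tests). At ZT0 the ratio was 0.53 ± 0.59 in CardioGRKO and 0.33 ± 0.45 in GRflox, a difference of 0.19 (exact permutation test, p 0.556). Between times, in tests added after the values were known, the ratio was lower at ZT12, with differences of -1.05 in CardioGRKO (exact permutation test, adjusted p 0.0317) and -2.01 in GRflox (adjusted p 0.0159), each adjusted over 4 such tests. In CardioGRKO, Nppb had fewer CPM than Nppa in 5 of 5 libraries at ZT12 and in 1 of 5 at ZT0. In GRflox it had fewer in 5 of 5 at ZT12 and, by 0.01 on the log2 scale, in 1 of 5 at ZT0.

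**Figure D3:**
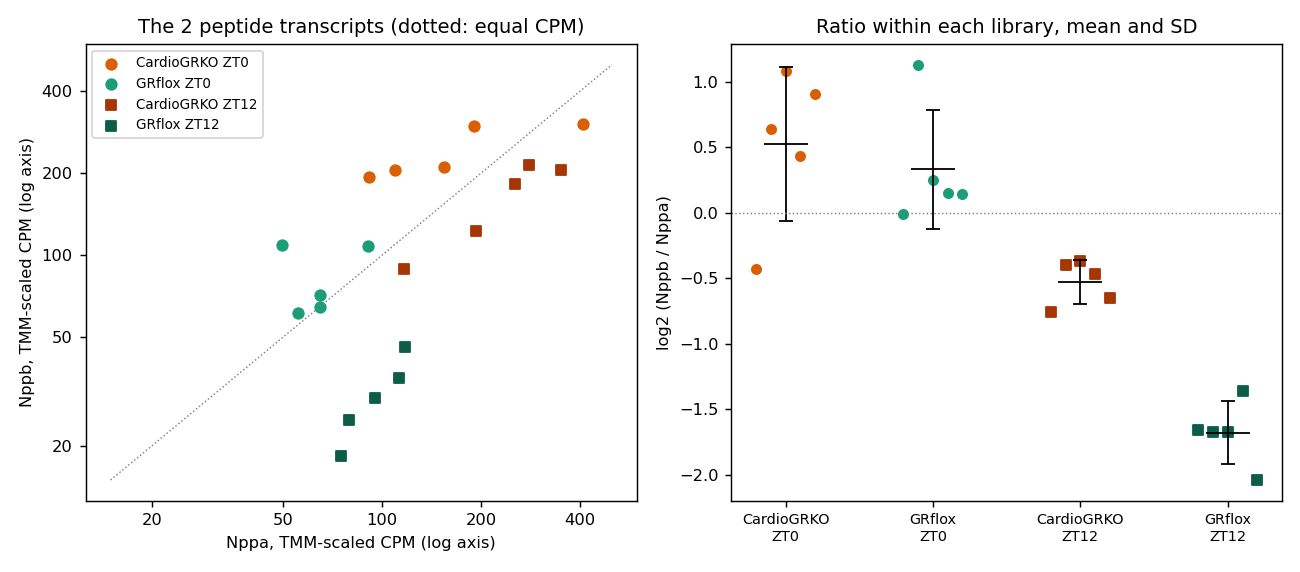
Left, Nppb against Nppa in each library (both axes logarithmic, TMM-scaled CPM; dotted line, equal CPM); right, log2 of Nppb over Nppa in each library with group mean and SD. At ZT12 the CardioGRKO libraries lie between -0.76 and -0.37 and the GRflox libraries between -2.04 and -1.36, and at ZT0 the genotypes overlap.

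Nppa and Nppb varied more between replicates than most genes. The biological coefficient of variation was 32.8% for Nppa and 25.6% for Nppb, against a median of 8.22% over all genes, and was larger than that of 98.3% and 95.3% of genes. For Corin it was 9.08%, for Npr3 13.9%, for Npr2 5.72% and for Npr1 5.44%. Library by library, the 2 peptide genes moved together: their deviations from the group means correlated with Pearson's r of 0.71 (permutation p 0.00012, adjusted p 0.00348 over 29 relations) and Spearman's rho of 0.71 (adjusted p 0.0125) over 20 libraries. Without the 2 libraries farthest from the median r was 0.68, and it was 0.84 in the 10 CardioGRKO and 0.61 in the 10 GRflox libraries.

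Of the stress genes set against the peptides, only Ankrd1, a mechanically responsive sarcomeric and nuclear protein gene, passed the threshold with both. Its level ran from 1806 to 4082 CPM in CardioGRKO and from 607 to 1450 CPM in GRflox. Deviations of Ankrd1 correlated with those of Nppa (r 0.77, adjusted p 0.0162, rho 0.76, adjusted p 0.0125, permutation tests) and of Nppb (r 0.67, adjusted p 0.0166, rho 0.73, adjusted p 0.0125). Within CardioGRKO r was 0.94 for Nppa and 0.92 for Nppb, and within GRflox 0.23 and 0.34. Whether these values differ between genotypes was not tested. Acta1 passed with Nppa by r (0.62, adjusted p 0.04995, permutation) and not by rho (0.61, adjusted p 0.0606). With Nppb it did not pass (r 0.58, adjusted p 0.0952, permutation). For Nppa and Nppb, r was 0.59 and 0.49 with Ctgf and 0.36 and -0.15 with Myh7, none past the threshold. Without the 2 libraries farthest from the median, r with Ankrd1 was 0.65 for Nppa and 0.57 for Nppb, neither past the threshold (adjusted p 0.115 each, permutation). Group means were not taken anew after leaving libraries out, so whether both calls rest on those libraries cannot be told. No other pair of the 6 genes passed the threshold, and deviations of Nr3c1 correlated with those of Nppa at -0.31 (adjusted p 0.318, permutation) and of Nppb at -0.12 (adjusted p 0.705, permutation).

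Atrial RNA was read beside the peptides, since Nppa is far more abundant in atria. Myl7, the atrial myosin light chain gene, ran from 1.24 to 30.8 CPM in CardioGRKO and from 0.196 to 60.5 CPM in GRflox. The summed level of the 4 atrial markers ran from 10.9 to 42 CPM in CardioGRKO and from 6.14 to 102 CPM in GRflox at ZT0, and from 5.38 to 80.2 CPM in CardioGRKO and from 1.96 to 149 CPM in GRflox at ZT12. Of the 3 atrial markers tested none was called between genotypes (edgeR, log2 fold changes from -0.97 to -0.58), and Bmp10 was at 0 in 18 libraries. Deviations of Nppa correlated with those of Myl7 with r 0.40 (adjusted p 0.0915) and rho 0.60 (adjusted p 0.0291) by permutation, and r was 0.31 in CardioGRKO and 0.76 in GRflox libraries. With Sln, an atrial regulator of the calcium pump, r was 0.46 (adjusted p 0.0915) and rho 0.70 (adjusted p 0.0125, permutation). Nppb had r 0.52 with Myl7 and 0.55 with Sln (adjusted p 0.129 and 0.125, permutation). Its rho was 0.49 and 0.60 (adjusted p 0.161 and 0.0713, permutation). Those r of Nppb were 0.27 and 0.32 in CardioGRKO and 0.68 and 0.73 in GRflox libraries. Without the 2 libraries farthest from the median, r of Nppa was 0.53 with Myl7 and 0.55 with Sln, and both were past the threshold (adjusted p 0.0291 each, permutation). With the log2 level of Myl7 as a covariate in the fit, added after the data were seen, Nppa was higher in CardioGRKO by 1.56 at ZT0 (adjusted p 0.00067, edgeR) and 1.36 at ZT12 (adjusted p 0.00128) on the log2 scale. Nppb was higher by 1.57 and 2.49.

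**Figure D4:**
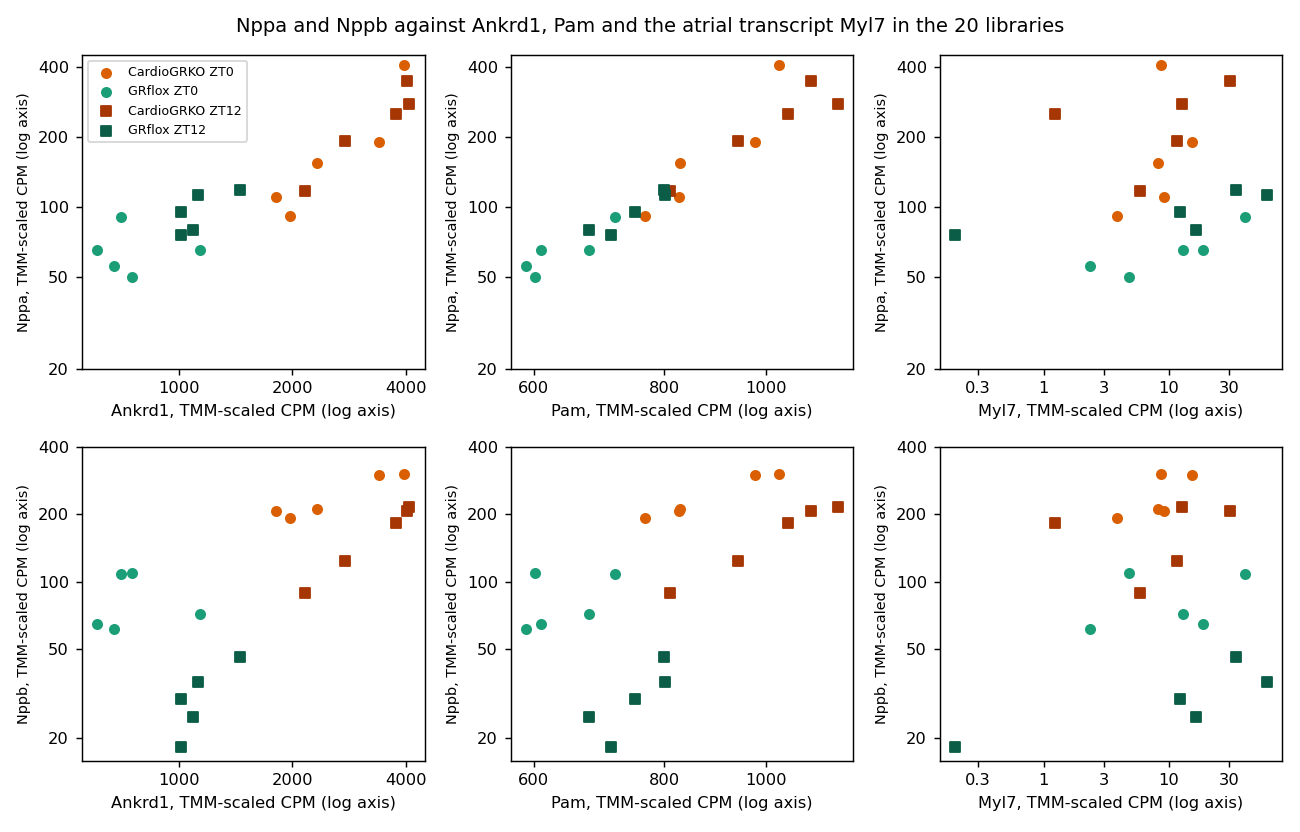
Nppa (top) and Nppb (bottom) against Ankrd1, Pam and Myl7 in the 20 libraries, all axes logarithmic and in TMM-scaled CPM, coloured by group. Ankrd1 starts at 1806 CPM in CardioGRKO, above every GRflox library, while over both times the peptides and Myl7 overlap between genotypes.

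Corin encodes the transmembrane serine protease of cardiomyocytes that cuts the Nppa precursor to the active peptide, and it was lower in CardioGRKO at both times, opposite to its substrate's transcript. At ZT0 the libraries had 181, 213, 204, 198 and 230 CPM in CardioGRKO, against 301, 267, 304, 281 and 285 CPM in GRflox. At ZT12 they had 219, 240, 164, 232 and 251 CPM in CardioGRKO, against 343, 336, 363, 321 and 353 CPM in GRflox. The genotypes' ranges were apart at both times. Its log2 fold change was -0.48 ± 0.08 at ZT0 (edgeR, adjusted p 0.000161) and -0.63 ± 0.08 at ZT12 (adjusted p 2.78e-06). In GRflox, Corin averaged 343 ± 15.9 CPM at ZT12 and 287 ± 15.2 CPM at ZT0 without overlap, a log2 fold change of 0.26 ± 0.08 (edgeR, adjusted p 0.0279). That call was lost without GRflox ZT0 replicate 2, 4 or 5 or GRflox ZT12 replicate 3 or 5 (adjusted p 0.0516 to 0.079). In CardioGRKO, Corin averaged 221 ± 34.1 CPM at ZT12 and 205 ± 17.9 CPM at ZT0, which did not differ beyond their spread (0.11 ± 0.08, adjusted p 0.476, edgeR), and was called without CardioGRKO ZT12 replicate 3, the lowest library (0.19, adjusted p 0.0367). Beside Corin, 4 of 6 ventricular cardiomyocyte markers were lower in CardioGRKO at each time, against 7.35% and 10.7% of all genes. The median log2 fold change of the 6 markers was -0.17 and -0.2, and their part in the result was not tested.

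Of 10 other genes of peptide processing, secretion and breakdown 7 were tested, and most of these were not called. At ZT0 1 was higher and 1 lower in CardioGRKO (median of the 7, -0.11 on the log2 scale), and at ZT12 1 was higher and 2 were lower (median -0.1), beside 14.7% and 21.1% of all genes called. Pam, an amidating enzyme of secretory granules that binds the Nppa precursor in atrial cells, was the higher one, by 0.47 ± 0.09 at ZT0 (edgeR, adjusted p 0.000696) and 0.44 ± 0.09 at ZT12 (adjusted p 0.000776). Furin, a proprotein convertase that can cut the Nppb precursor, was lower. It had 144, 169, 168, 174 and 152 CPM in CardioGRKO at ZT0, against 213, 201, 230, 223 and 200 CPM in GRflox, and its log2 fold change was -0.40 ± 0.08 at ZT0 and -0.49 ± 0.08 at ZT12 (edgeR, adjusted p 0.0012 and 7.51e-05). Mme, which encodes neprilysin, a peptidase that degrades the peptides, was lower at ZT12 (-0.36 ± 0.09, adjusted p 0.00473, edgeR) and had -0.27 ± 0.09 at ZT0 (adjusted p 0.0509). Pcsk5, another convertase, was not called at either time (-0.28 ± 0.13 and 0.13 ± 0.14). Between times, 0 of the 7 was called in CardioGRKO and 1, Pcsk5, in GRflox, where it was lower at ZT12 (-0.45 ± 0.13, adjusted p 0.0218, edgeR). Of all genes 9.17% were called between times in CardioGRKO and 17.3% in GRflox.

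Npr1 encodes guanylyl cyclase A, the receptor of both cardiac peptides, and it was modestly lower in CardioGRKO. At ZT0 its levels were 30, 29.7, 29.4, 30.1 and 26.7 CPM in CardioGRKO, against 35.1, 33.4, 37, 31.1 and 30.8 CPM in GRflox. At ZT12 they were 28, 27.2, 27.2, 26.5 and 28.6 CPM in CardioGRKO, against 35.6, 33.9, 33.8, 31.2 and 33.2 CPM in GRflox. Both comparisons were without overlap, at ZT0 with 30.1 CPM as the highest CardioGRKO and 30.8 CPM as the lowest GRflox library. Its difference was -0.20 ± 0.05 on the log2 scale at ZT0 (edgeR, adjusted p 0.0173) and -0.29 ± 0.05 at ZT12 (adjusted p 0.000359). At ZT0 the call was lost without CardioGRKO ZT0 replicate 5 (adjusted p 0.0546), GRflox ZT0 replicate 1 (0.0565) or GRflox ZT0 replicate 3 (0.0635), in a fit of only these 2 groups (0.0517), and with all libraries thinned to the shallowest total (0.161). Between times Npr1 did not differ beyond its spread in CardioGRKO (-0.09 ± 0.06) or in GRflox (0.00 ± 0.05, 95% interval -0.11 to 0.12). Beside 7.35% of all genes at ZT0 and 10.7% at ZT12, endothelial markers were lower in CardioGRKO too, 4 of 6 and 3 of 6. Their summed level ran from 1124 to 1258 CPM in CardioGRKO and from 1280 to 1417 CPM in GRflox at ZT0, and from 895 to 1045 CPM in CardioGRKO and from 1037 to 1123 CPM in GRflox at ZT12. Their part in the Npr1 difference was not tested.

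Npr2 encodes guanylyl cyclase B, the receptor of C-type natriuretic peptide, and showed no called difference. It averaged 94.4 ± 4.78 CPM in CardioGRKO and 89.1 ± 2.31 CPM in GRflox at ZT0, and 101 ± 5.5 CPM in CardioGRKO and 97.2 ± 7.07 CPM in GRflox at ZT12. The genotypes overlapped at both times. The 95% interval of the log2 fold change was -0.02 to 0.19 at ZT0 and -0.05 to 0.16 at ZT12. Between ZT12 and ZT0, its log2 fold change was 0.10 ± 0.05 in CardioGRKO and 0.12 ± 0.05 in GRflox (edgeR, adjusted p 0.261 and 0.0931), the second of which was called without GRflox ZT12 replicate 1 (0.16, adjusted p 0.0313). Nppc, which encodes its ligand, had 10 counts in all 20 libraries together and was at 0 in 14 of them, and Ostn, which encodes osteocrin, a peptide that binds Npr3, had 14 counts and was at 0 in 11. Both were left out by the filter on low counts.

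Npr3 encodes the clearance receptor, which takes up the peptides and has no guanylyl cyclase domain. It averaged 22 ± 2.4 CPM in CardioGRKO and 21.5 ± 3.58 CPM in GRflox at ZT0, and 28.1 ± 4.19 CPM in CardioGRKO and 24.9 ± 5.38 CPM in GRflox at ZT12. Ranges overlapped at both times, and the 95% intervals of the genotype difference were -0.25 to 0.3 and -0.1 to 0.43 on the log2 scale. In CardioGRKO, 4 of 5 libraries at ZT12 lay above every library at ZT0, and the log2 fold change of 0.36 ± 0.13 did not pass the adjustment (unadjusted p 0.0112, adjusted p 0.0893, edgeR). It passed without CardioGRKO ZT12 replicate 4 (0.43, adjusted p 0.0499), without GRflox ZT12 replicate 3 (adjusted p 0.0417) and in a fit of only these 2 groups (adjusted p 0.0425). In GRflox the time difference was 0.22 ± 0.13 (adjusted p 0.271, edgeR).

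The ratio of Npr3 to Npr1, the clearance receptor over the signalling receptor, was also read within libraries. At ZT12 its log2 was 0.02 ± 0.21 in CardioGRKO and -0.45 ± 0.31 in GRflox (SD, n = 5 each), a difference of 0.47 that did not pass the adjustment (2-sided exact permutation test, p 0.0317, adjusted p 0.0635). At ZT0 it was -0.41 ± 0.11 in CardioGRKO and -0.65 ± 0.29 in GRflox, a difference of 0.24 (exact permutation test, adjusted p 0.201). In tests added after the values were known, the ratio was higher at ZT12 than at ZT0 by 0.43 within CardioGRKO (exact permutation test, p 0.00794, adjusted p 0.0159). Within GRflox it was higher by 0.20 (exact permutation test, adjusted p 0.317). Of 4 endocardial markers 0 was called at ZT0 and 1 was lower in CardioGRKO at ZT12, with summed levels from 113 to 127 CPM in CardioGRKO and from 129 to 149 CPM in GRflox at ZT12. No fibroblast marker of 6 was called between genotypes at either time (edgeR), with summed levels from 784 to 907 CPM in CardioGRKO and from 771 to 958 CPM in GRflox at ZT12.

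Downstream of the receptors, 19 genes of cGMP signalling were followed and 18 were tested. At ZT0 1 was higher and 0 were lower in CardioGRKO (median -0.08 on the log2 scale), and at ZT12 3 were higher and 3 lower (median -0.08), beside 14.7% and 21.1% of all genes called. Pde1c, a phosphodiesterase that breaks down cGMP and cAMP, was higher at ZT0 (0.44 ± 0.06, adjusted p 2.96e-05, edgeR) and at ZT12 (0.27 ± 0.06, adjusted p 0.0032). At ZT12 Vasp, a substrate of cGMP-dependent kinase, was higher by 0.25 ± 0.07 (adjusted p 0.0128). Mrvi1, whose product links that kinase to calcium release in smooth muscle, had -0.26 ± 0.08 (adjusted p 0.0195), and Pln, the inhibitor of the cardiac calcium pump SERCA, -0.15 ± 0.05 (adjusted p 0.0265). None of these 3 was called at ZT0. Between ZT12 and ZT0 1 gene was higher and 1 lower in CardioGRKO, beside 9.17% of all genes called. In GRflox 1 was higher and 3 were lower, beside 17.3% of all genes called. The higher gene in both was Prkg1, the cGMP-dependent kinase gene, by 0.57 ± 0.08 in CardioGRKO and 0.56 ± 0.08 in GRflox, and it was named after its values had been seen.

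All 15 transcription factors followed as known to act on the peptide promoters were tested. In CardioGRKO 0 were higher and 3 lower at ZT0 (median -0.1), and 3 were higher and 4 lower at ZT12 (median 0.01), with the same 14.7% and 21.1% of all genes called. Gata4, a zinc-finger activator of both peptide genes, had at ZT12 levels of 272, 236, 270, 276 and 217 CPM in CardioGRKO ventricles, against 172, 189, 186, 197 and 187 CPM in GRflox, without overlap. Its log2 fold change was 0.45 ± 0.06 at ZT12 (edgeR, adjusted p 7.16e-06) and 0.05 ± 0.06 at ZT0 (adjusted p 0.65). Over time Gata4 was lower at ZT12 in GRflox (-0.51 ± 0.06, adjusted p 1.65e-06) and not called in CardioGRKO (-0.11 ± 0.06, adjusted p 0.287), and the interaction of 0.40 ± 0.09 did not pass (adjusted p 0.0587, edgeR). Yap1, a coactivator of the TEAD factors that bind M-CAT motifs, was higher at ZT12 (0.24 ± 0.05, adjusted p 0.000406), and Tead1, one of those factors, named after its values had been seen, was lower (-0.26 ± 0.05, adjusted p 0.00121). Gata6, a paralogue of Gata4, was lower at both times (-0.37 ± 0.05 each, adjusted p 1.34e-05 and 5.39e-06). Hey2, a ventricular repressor that restrains atrial genes, was lower, with log2 fold changes of -0.61 ± 0.16 at ZT0 (adjusted p 0.0091) and -0.77 ± 0.15 at ZT12 (adjusted p 0.000728). Between times 0 factors were higher and 2 lower at ZT12 in CardioGRKO, beside 4.42% and 4.75% of all genes. In GRflox 0 were higher and 4 lower, beside 8.13% and 9.17% of all genes.

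Of 6 cardiomyocyte stress genes 5 were higher in CardioGRKO at ZT0 and 4 at ZT12, and 0 were lower. Of all genes 7.36% and 10.4% were higher, and 7.35% and 10.7% lower. The median log2 fold changes of the 6 were 0.98 and 0.7, against -0.006 and 0.004 over all genes. The list was chosen with earlier results of these data known. Acta1, the skeletal actin gene that the stressed ventricle re-expresses, was higher by 1.80 ± 0.30 at ZT0 and 1.90 ± 0.30 at ZT12 (edgeR, adjusted p 0.000145 and 4.59e-05). Ankrd1 was higher by 1.80 ± 0.21 and 1.56 ± 0.21 (adjusted p 1.7e-06 and 5.25e-06). Ctgf, a matricellular growth factor gene, was higher by 1.10 ± 0.15 and 0.73 ± 0.15, and Uchl1, a deubiquitinase gene, by 0.86 ± 0.12 and 0.67 ± 0.12, all called. Between times 0 of the 6 was called in CardioGRKO, beside 9.17% of all genes. In GRflox 1, Uchl1, was higher at ZT12, beside 17.3% of all genes called.

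Around the peptide genes, 16 counted genes within 200 kb of the pair were followed and 13 of them were tested. In CardioGRKO 1 was higher and 1 lower at ZT0, and 2 were higher and 2 lower at ZT12, beside 14.7% and 21.1% of all genes called, with log2 fold changes from -0.53 to 0.56 and from -0.63 to 0.60. The next counted gene after Nppa, Clcn6, which encodes a chloride transporter, had 0.26 ± 0.09 at ZT0 (adjusted p 0.0595, edgeR) and 0.04 ± 0.09 at ZT12 (adjusted p 0.815). The next one before Nppb, 2510039O18Rik, had 0.05 ± 0.07 at ZT0 and was higher by 0.32 ± 0.07 at ZT12 (adjusted p 0.00108). The differences of these neighbours were smaller than those of Nppa and Nppb at each time.

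**Figure D5:**
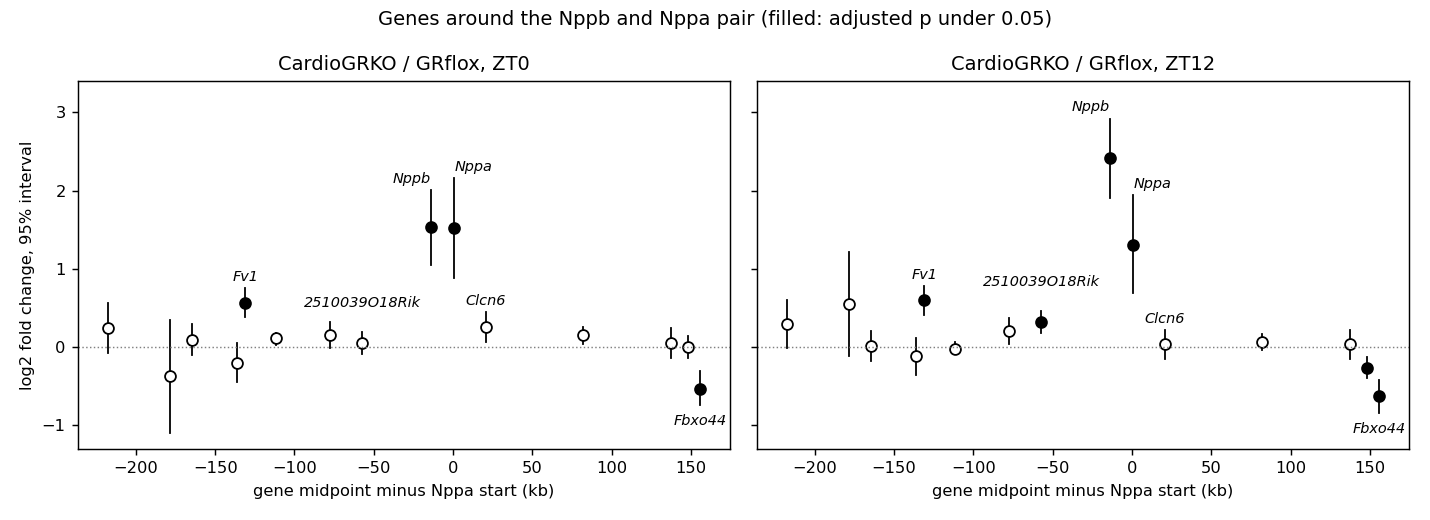
Log2 fold change of CardioGRKO over GRflox (points, with 95% intervals) at ZT0 and ZT12 for the genes followed and tested around the peptide pair, by the distance in kb of each gene's midpoint from the Nppa start; filled points have an adjusted p under 0.05. Nppb and Nppa lie between 1.31 and 2.41, and the tested neighbours between -0.63 and 0.60.

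The genes whose library-to-library pattern was most like each of the 6 were ranked by Pearson's r of log2 CPM deviations from group means over the 20 libraries, among 11357 genes. They are given as a description without a test. For Nppa they were Mthfd2, a mitochondrial folate enzyme gene (r 0.92), Pam (0.90) and Rtn4, a reticulon gene (0.88). For Nppb they were Tnfrsf12a, the receptor gene of the cytokine TWEAK (0.91), Pcolce, an enhancer of procollagen processing (0.90), and Bgn, which encodes the proteoglycan biglycan (0.87). Nppb was number 89 for Nppa, and Nppa number 167 for Nppb. All 3 genes like Nppa were higher in CardioGRKO at both times, Mthfd2 by 1.0 at ZT0 and 1.49 at ZT12 on the log2 scale (edgeR, adjusted p 0.0174 and 0.000396). Of the genes like Nppb, Pcolce was higher at both times (0.25 and 0.33, adjusted p 0.0493 and 0.00596, edgeR), Tnfrsf12a was called at ZT12 (1.16, adjusted p 0.000783) and not at ZT0 (0.57, adjusted p 0.0937), and Bgn at neither time (0.19 and 0.28, adjusted p 0.292 and 0.0807). For Corin the nearest were Art3, an ADP-ribosyltransferase family gene (0.90), Lpl, which encodes lipoprotein lipase (0.83), and Fbxl17, an F-box gene (0.83). Art3 was lower in CardioGRKO, with log2 fold changes of -0.93 at ZT0 and -1.19 at ZT12, as was Lpl with -0.28 and -0.42, all called, while Fbxl17 was called only at ZT12 (-0.20, adjusted p 0.00482). The receptors' best values were lower, 0.82 for Npr1 with Alkbh4, 0.83 for Npr2 with Sec24b and 0.75 for Npr3 with Slc39a7. Unlike Npr1, the 3 genes nearest to it were not called between genotypes at either time by edgeR. Their log2 fold changes at ZT0 and ZT12 were -0.14 and 0.14 for Alkbh4, 0.00 and -0.01 for Rfxank, and -0.25 and -0.01 for Card6.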

How the data were processed

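Left ventricular RNA was read as 20 poly(A)-enriched libraries with paired reads of 75 bases, per the labels' protocols. The authors deposited unnormalized whole-number read counts for each gene. The submitters' processing notes name Subread 1.5.1 with featureCounts, STAR 2.5.1, DESeq2 1.38.3 and build mm10. Strand handling in the counting is not stated in the labels or headers, and GENCODE M21 annotates antisense or overlapping transcripts at Nppa, Npr1, Npr2, Npr3 and Corin that are not analysed here, so their reads may be included in those counts. For 369 genes with several loci the lines were added up per Entrez identifier (24059 genes in all), and 99.6% of identifiers matched RefSeq of GRCm38.p6.

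Genes were tested with edgeR 4.0.16 (glmQLFit, glmQLFTest) in R 4.3.3 on all 20 libraries with group means, TMM factors (0.961 to 1.040) and filterByExpr (minimum count 10, minimum total 15), which kept 14007 genes. The contrasts were CardioGRKO over GRflox at each time, ZT12 over ZT0 in each genotype, and the interaction, each adjusted by the Benjamini-Hochberg method. The standard error is the size of the log2 fold change over the square root of F. Of the genes near the peptide pair, 1 is not reported here. CPM per kb uses the union of GENCODE exons. Log2 CPM for ratios and correlations had a prior count of 2. Ratios were compared with 2-sided exact permutation tests, and correlations with 100000 permutations of libraries within groups. Correlations without the 2 farthest libraries kept the deviations from the group means of all 20 libraries. The genes were named by rule: the 6 genes and Nr3c1, up to 4 genes per pathway list with the smallest p between genotypes, and the 3 nearest patterns of each gene. The lists and members were chosen with earlier results of these data known. In the same design, on simulated counts of CardioGRKO against GRflox at ZT0 over 14007 genes, the test recovered 18% of genes changed 1.2-fold, 78% at 1.5-fold, 92% at 2-fold and 96% at 3-fold, with 3.4% of its calls false. Changes were simulated in far fewer genes than the 2060 called in the data at ZT0, so the recovered shares may differ in the data. No 2 replicates agreed within counting noise: chi-square per gene was 4.22 to 20.96 for pairs within a group, over genes with 20 counts or more. Alternatives were RLE and upper-quartile factors, DESeq2 1.42.0, no filter, fits of the compared groups alone, the replicate number as a block, a prior count of 0.5 and leaving out each library; thinning, the Myl7 covariate, the ratio tests between times and the motifs TATAAA and TGATAA were added after the data were seen. Figures were drawn with matplotlib 3.10.9.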

Additional observations from a re-analysis of the deposited data

Results flagged for a closer look

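In groups of 5 libraries, a library was set apart where its gap to the nearest other library exceeded 0.71 of the group's range (Dixon's 95% value). Of 32 groups tested for levels and ratios 2 had such a library, and chance gives about 1 in 20. CardioGRKO ZT0 replicate 5 had 26.7 CPM of Npr1, with a gap of 0.80 of the range below the other 4 libraries of its group. GRflox ZT0 replicate 2 had a log2 ratio of Nppb to Nppa of 1.13, with a gap of 0.77 of the range above the others.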

How the results depend on the processing

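Of 1320 values under alternatives, 1218 were kept. For fold changes, ratios and correlations this means the same direction and side of the threshold. For counts of genes or pairs called it means a count of similar size. The higher Nppa and Nppb and the lower Corin in CardioGRKO were called at both times under every alternative run, as was the lower Npr1 at ZT12; the cause of the changes below was not tested unless stated.

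Thinning every library to the shallowest total called fewer genes, 1371 and 1899 between genotypes at ZT0 and ZT12, 753 between times in CardioGRKO and 1472 in GRflox, against 2060, 2952, 1284 and 2423, since fewer counts enter. DESeq2 called 69 interactions, against 26. Between times in CardioGRKO 1 of the 6 genes, Npr3, was called in a fit of only the 2 groups and with the replicate block, against 0. Leaving out 1 library each, genes called ran from 1636 to 2136 and from 2498 to 3041 between genotypes, from 874 to 1371 in CardioGRKO and 1931 to 2504 in GRflox between times, and from 16 to 33 for the interaction. Of the 6 genes 3 to 4 were called at ZT0, 4 at ZT12, 0 to 1 between times in CardioGRKO and 1 to 3 in GRflox.

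Deviations of same-numbered replicates correlated with r over 0.1 in 5 of 20 pairs (r from -0.27 to 0.23). In 6 of the 20 pairs the own number was the best match among the 5 libraries of the other group. Some such matches arise without any pairing. Whether the numbers pair the libraries was not tested. With the replicate block, edgeR called 2194 and 3111 genes between genotypes, 1359 in CardioGRKO and 2513 in GRflox between times, and 38 interactions. With libraries paired by number, the ratio differences keep their size by construction, and only their p-values can change. For Nppb to Nppa the difference at ZT12 was 1.15 (exact permutation, adjusted p 0.125). Between times it was -2.01 in GRflox and -1.05 in CardioGRKO (exact permutation, adjusted p 0.0833 each). That of Npr3 to Npr1 between times was 0.43 in CardioGRKO (adjusted p 0.0833, exact permutation). Such p-values are limited, since 5 pairs cannot give a small p.

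Leaving out 1 library, the ratio of Nppb to Nppa differed between genotypes by 1.06 to 1.23 at ZT12 (adjusted p 0.0317 to 0.0635) and by 0.06 to 0.43 at ZT0, and between times by -1.29 to -0.92 in CardioGRKO (adjusted p 0.0212 to 0.0635) and -2.10 to -1.81 in GRflox; 4 against 5 libraries raises the smallest possible p. For Npr3 to Npr1 the range at ZT12 was 0.40 to 0.59 (adjusted p 0.0317 to 0.127).

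Some values that were not called changed sign. Npr3 between genotypes at ZT0 was -0.02 when thinned and -0.04 to 0.09 without 1 library. Npr1 between times in GRflox was 0.00 with no filter and when thinned, and -0.03 to 0.04 without 1 library. The interaction without 1 library was -0.39 to 0.24 for Nppa, -0.06 to 0.01 for Npr2 and -0.06 to 0.02 for Nr3c1. Of correlations, none of them past the threshold, Npr1 with Npr3 was -0.26 and Nppa with Myh7 -0.13 without the 2 farthest libraries, and Npr1 with Corin was -0.20 in CardioGRKO. In GRflox alone Nppa with Corin was 0.30, Npr1 with Npr3 -0.18, Npr2 with Npr3 0.17, Npr3 with Corin 0.27 and Nppa with Myh7 -0.39, and 2 pairs passed the threshold, Nppa with Myl7 and with Sln, against 4 in all libraries.

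The lowest counts in any library were 150 for Npr3 and 182 for Npr1.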

Other observations

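Markers of other cell types that the ventricle holds are given as counts and summed levels. Of all genes 7.35% were lower in CardioGRKO at ZT0 and 10.7% at ZT12. Of 5 conduction system markers 1 was lower in CardioGRKO at ZT0 and 3 at ZT12. Log2 fold changes of the 5 reached up to 0.14 at ZT0 and 0.24 at ZT12, and 0 were called higher. At ZT0 Etv1 (0.14) and Irx3 (0.08) lay above 0. Hcn4, the pacemaker channel gene, was the lowest of the 5, with log2 fold changes of -0.55 at ZT0 and -0.86 at ZT12 (edgeR, adjusted p 0.000589 and 1.42e-06). Hcn4 was chosen after its values were seen. The summed level of the 5 markers ran from 89.9 to 119 CPM in CardioGRKO and from 104 to 125 CPM in GRflox at ZT12. Markers of pericytes and smooth muscle (6 genes) were lower in 3 cases at ZT0 and in 1 at ZT12, with median log2 fold changes of -0.23 and -0.22. None of 3 macrophage markers tested was called between genotypes (edgeR), with summed levels from 123 to 169 CPM in CardioGRKO and from 136 to 154 CPM in GRflox at ZT12. The part of these cell types in the differences of the natriuretic peptide genes was not tested.

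The third convertase on the processing list, Pcsk6, had log2 fold changes of -0.03 ± 0.07 at ZT0 and -0.13 ± 0.07 at ZT12 between genotypes, and Ide, an enzyme that degrades atrial natriuretic peptide, had -0.11 ± 0.07 and -0.10 ± 0.07. Neither was called at either time. The granule protein genes Chga and Scg2 had 7 counts and 1 count in all 20 libraries together, below the filter on low counts.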
